A study of Homo sapiens with 8 samples.

Results

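The receptors of the gp130 cytokine family, the Janus kinases (JAKs) bound to them and 2 STAT transcription factors were followed in the RNA of 22RV1 cells, a line established from a human prostate cancer. The set has 10 genes out of the 23346 gene symbols with counts: the shared receptor gp130 (IL6ST), the receptors IL6R, LIFR, OSMR and IL11RA, the kinases JAK1, JAK2 and TYK2, and STAT3 and STAT5B. They were chosen by symbol from these same measurements, because IL6ST was strongly lower and STAT3 higher with the microRNA. The differences between the groups are therefore given for these genes as a description, without p-values. Whether one of them passed a threshold is part of that description and is no evidence. All 10 had a row and all 10 passed the filter on low counts.

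The study compared 4 libraries of 22RV1 cells given a miR-194 mimic at 20 nM with 4 libraries of cells given a negative control RNA at the same dose. Both were transfected into cells in suspension in serum-containing medium, and RNA was collected after 36 h. A mimic is a synthetic RNA that acts as the mature microRNA, and its level in the cells was not analysed here. The control sequence and any untransfected cells were not analysed here either. Every library came from 1 cell line, and the labels do not say whether the replicates of a group were separate cultures, so p-values cover no more than the spread among these libraries, which may be technical.

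Library totals ran from 32485036 to 47248241 counts, and 3 counts in a library corresponded to between 0.0638 and 0.093 CPM (counts for each 1000000, with TMM scaling of library sizes). Of 14977 tested genes, 38.1% passed an adjusted p of 0.05 in edgeR's quasi-likelihood test, 18.3% higher and 19.9% lower with the mimic. The line was checked against cell type markers. Prostate luminal markers (10 of 10 tested, 4 higher and 2 lower) summed to between 4860 and 5190 CPM in the mimic libraries and between 4740 and 4970 CPM in the control libraries. Fibroblast markers (4 of 6 tested, 1 higher and 0 lower) summed to between 47.8 and 56.3 CPM against between 44.3 and 52.1 CPM in control libraries. Endothelial markers (0 of 5 tested) summed to at most 0.093 CPM with the mimic and 0.152 CPM with the control, and the defining genes PECAM1 and CDH5 had no count. Immune markers (3 of 6 tested, 1 higher and 0 lower) summed to between 6.57 and 9.11 CPM with the mimic and between 4.7 and 5.21 CPM with the control, mostly from CD68. Their part in the results below was not tested.

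Cytokines of this family each bind a receptor that recognises them, and the complex forms around gp130, which most of them share. JAKs attached to the receptors' cytoplasmic tails then phosphorylate tyrosines that dock STAT3, which moves to the nucleus and switches on genes that include its own inhibitor SOCS3. In prostate cancer cells interleukin-6 signalling through this route has been linked to growth, survival and a neuroendocrine phenotype. RNA counts show how much message each component had. They do not measure receptor protein or phosphorylated STAT3, and in bulk RNA fewer cells with a message cannot be told apart from less of it in each cell.

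MicroRNAs lower their targets mainly by pairing bases 2 to 8, the seed, with sites in 3′ untranslated regions (UTRs). The mature miR-194-5p sequence is shown with its seed in capitals, followed by the matches of at least 7 letters (8mers and 7mers) found in the 3′ UTRs of the 10 genes, because IL6ST held 4 of them and only IL6R and STAT5B among the other genes held one. In the sites, written as DNA 5′ to 3′ on the gene's strand, capitals mark the match to the seed and, in 7mer-A1 and 8mer sites, the A that follows it opposite base 1.
hsa-miR-194-5p: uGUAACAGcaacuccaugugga
IL6ST site at UTR base 2605: aatgacccaaaTGTTACAtgtgttgatat
IL6ST site at UTR base 2957: atacttagaaaTGTTACAactttaaaatg
IL6ST site at UTR base 2973: caactttaaaaTGTTACAaaacattcatt
IL6ST site at UTR base 3999: ggttttaagtgCTGTTACAttaataccata
IL6R site at UTR base 2130: ccaggtttaagCTGTTACtgtcttcagta
STAT5B site at UTR base 2533: tgtgtattttaTGTTACAataaagccttc
The microRNA sequence is RefSeq's for GRCh38.p14, where the same mature sequence is annotated at chr1:220118206-220118227 and chr11:64891404-64891425, both on the minus strand. Sites are from GENCODE 29 transcripts (GRCh38), and bases count from 1 at the first base after the stop codon in the transcript with the longest coding sequence.

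Sites were searched on the transcript strand as CTGTTACA (8mer), CTGTTAC (7mer-m8), TGTTACA (7mer-A1) and TGTTAC (6mer), each site counted once in its longest class. The IL6ST matches lie in the last exon of the gene (minus strand of chromosome 5), in a UTR of 5987 bases. Those at 2605, 2957 and 2973 are 7mer-A1 sites at chr5:55938471-55938477, chr5:55938119-55938125 and chr5:55938103-55938109, and the pair at 2957 and 2973 starts 16 bases apart. The match at 3999 is an 8mer at chr5:55937076-55937083. Only 0.267% of the tested genes with an annotated 3′ UTR had at least 4 8mer or 7mer sites in this UTR, a total of 36 genes. Length bears on that number: among the 530 genes whose UTR was at least as long as that of IL6ST, 24 had at least 4 sites and 335 had at least 1.

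IL6R carried a single 7mer-m8 at chr1:154467510-154467516 (plus strand), in a UTR of 4070 bases. STAT5B carried a single 7mer-A1 at chr17:42199199-42199205 (minus strand), 31 bases before the annotated end of its UTR. LIFR, with a UTR of 6632 bases, had only 2 6mers, and JAK1 had 1. OSMR, IL11RA, JAK2, TYK2 and STAT3 had no match of any class in their 3′ UTR, and none of the 10 had an 8mer or 7mer in its coding sequence. So 3 of the 10 genes had an 8mer or 7mer, against 21.5% of all tested genes with a 3′ UTR when the longest annotated UTR was used, and 17.7% with the UTR of the longest coding sequence, which was added after the data were seen. A match describes the letters and does not show that the site was used.

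**Figure D1:**
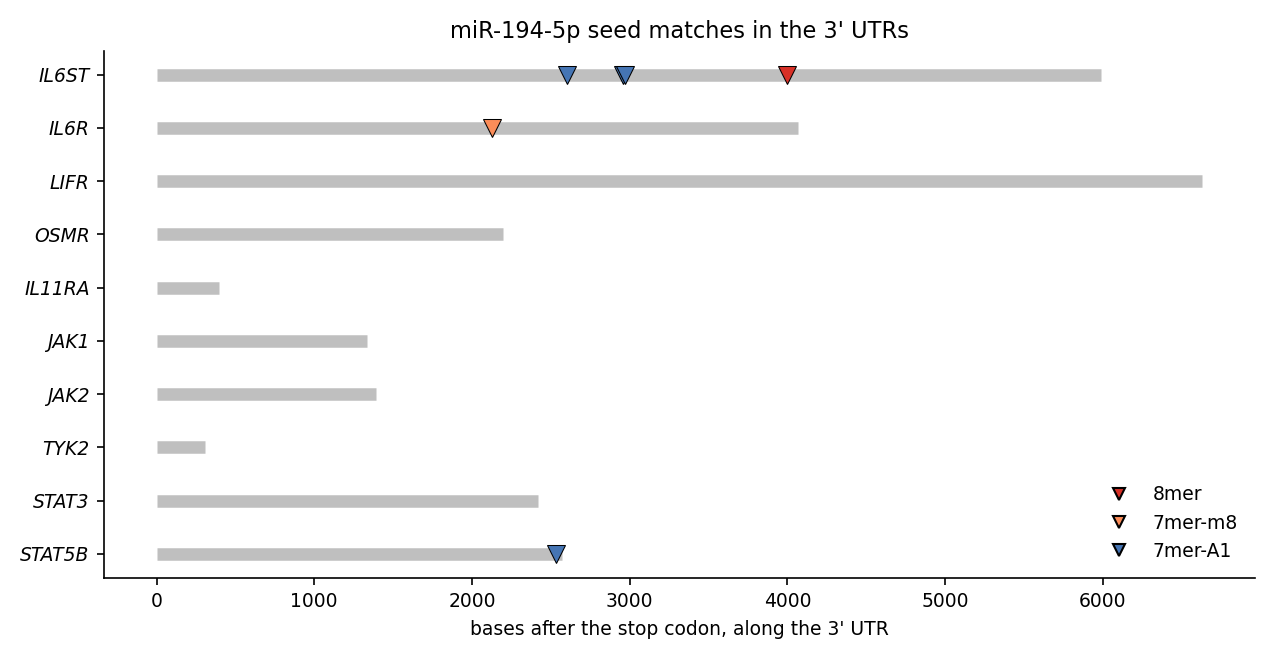
Position of 8mer, 7mer-m8 and 7mer-A1 matches to the miR-194-5p seed (triangles) along the 3′ UTR of each gene's transcript with the longest coding sequence (grey bars), in bases after the stop codon. IL6ST holds 4 matches, of which those at 2957 and 2973 nearly coincide at this scale, IL6R and STAT5B hold 1 each, and the other 7 genes hold none.

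Among the receptors, the shared subunit stood apart. IL6ST, the signal-transducing chain gp130 that every receptor in the set pairs with, had 25.9, 23.3, 22.5 and 22.8 CPM in the mimic libraries and 80.8, 77.0, 79.7 and 78.7 CPM in the control libraries.
The groups were far apart, and the 4 libraries within each lay close together, with coefficients of variation of 6.68% with the mimic and 2.03% with the control. The mean was 23.6 ± 1.58 CPM with the mimic and 79.1 ± 1.6 CPM with the control (SD, n = 4 each). On the log2 scale IL6ST fell by 1.74 ± 0.05 (SE), so the level fell by 70.1%. The values rest on between 752 and 1137 counts in the mimic libraries and between 3131 and 3543 in the control libraries. By log2 fold change IL6ST ranked 10 from the lowest among all 14977 tested genes, and 0.107% of them had a change at least as large in either direction.

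LIFR, the chain that joins gp130 to receive leukaemia inhibitory factor, had 41.4, 42.1, 34.1 and 36.9 CPM with the mimic and 56.0, 52.8, 50.6 and 48.8 CPM with the control. Each mimic library was below each control library. Means were 38.6 ± 3.81 and 52.1 ± 3.12 CPM in the 4 mimic and 4 control libraries, and the log2 fold change was -0.43 ± 0.07 (SE), so the level fell by 25.9%. IL11RA, which binds interleukin-11, had 5.36, 5.92, 5.35 and 5.07 CPM with the mimic, against 6.92, 7.26, 6.80 and 6.70 CPM with the control. The groups were again separate, with a log2 fold change of -0.36 ± 0.08 (SE), and the level fell by 21.8%.

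OSMR, which pairs with gp130 to bind oncostatin M, was the single receptor of the set called higher. It had 6.44, 6.45, 6.80 and 5.83 CPM with the mimic and 5.68, 5.30, 5.12 and 4.99 CPM with the control. The lowest mimic library lay just above the highest control library. The log2 fold change was 0.27 ± 0.08 (SE, 20.9% higher), on 208 to 286 counts per mimic library and 201 to 244 per control library. The call was lost without negative control replicate 4 (0.25), within replicates 1 and 2 (0.23) and within replicates 3 and 4 (0.32).

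IL6R, the chain that recognises interleukin-6 itself, had 56.9, 56.8, 43.2 and 37.4 CPM in mimic replicates 1 to 4 and 49.7, 47.9, 40.5 and 38.9 CPM in control replicates 1 to 4. The groups overlapped, and in both groups replicates 1 and 2 were above replicates 3 and 4. Means were 48.5 ± 9.85 CPM with the mimic and 44.3 ± 5.33 CPM with the control (SD, n = 4 each), the widest relative spread of the 10 genes in either group, and the log2 fold change of 0.13 ± 0.14 (SE) was not called. Within replicates 1 and 2 it was 0.22 ± 0.05, and within replicates 3 and 4 it was 0.02. With the replicate number as a block it was 0.12 ± 0.05 and was called higher. IL6R thus carried a 7mer-m8 site without a lower level in any of these fits.

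The receptors changed unequally, and the make-up of the receptor message differed between the groups. Levels of different genes were compared as RPKM, CPM divided by the kilobases of annotated exon. IL6ST made up 16.2, 14.6, 17.1 and 18.4% of the summed RPKM of the 5 receptors in the mimic libraries and 37.0, 36.7, 40.0 and 40.6% in the control libraries. IL6R made up 51.1, 51.3, 47.2 and 43.4% in mimic libraries and 32.7, 32.8, 29.3 and 28.9% in control libraries. The LIFR share lay between 20.2 and 23.3% with the mimic and between 19.7 and 20.1% with the control. In RPKM, IL6ST stood at 0.317, 0.285, 0.362 and 0.424 times IL6R with the mimic, and at 1.13, 1.12, 1.37 and 1.40 times IL6R with the control. The shared chain was thus above IL6R in every control library and below it in every mimic library. Shares of a sum move together, so the rise of the IL6R share does not by itself show a rise of its level.

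**Figure D2:**
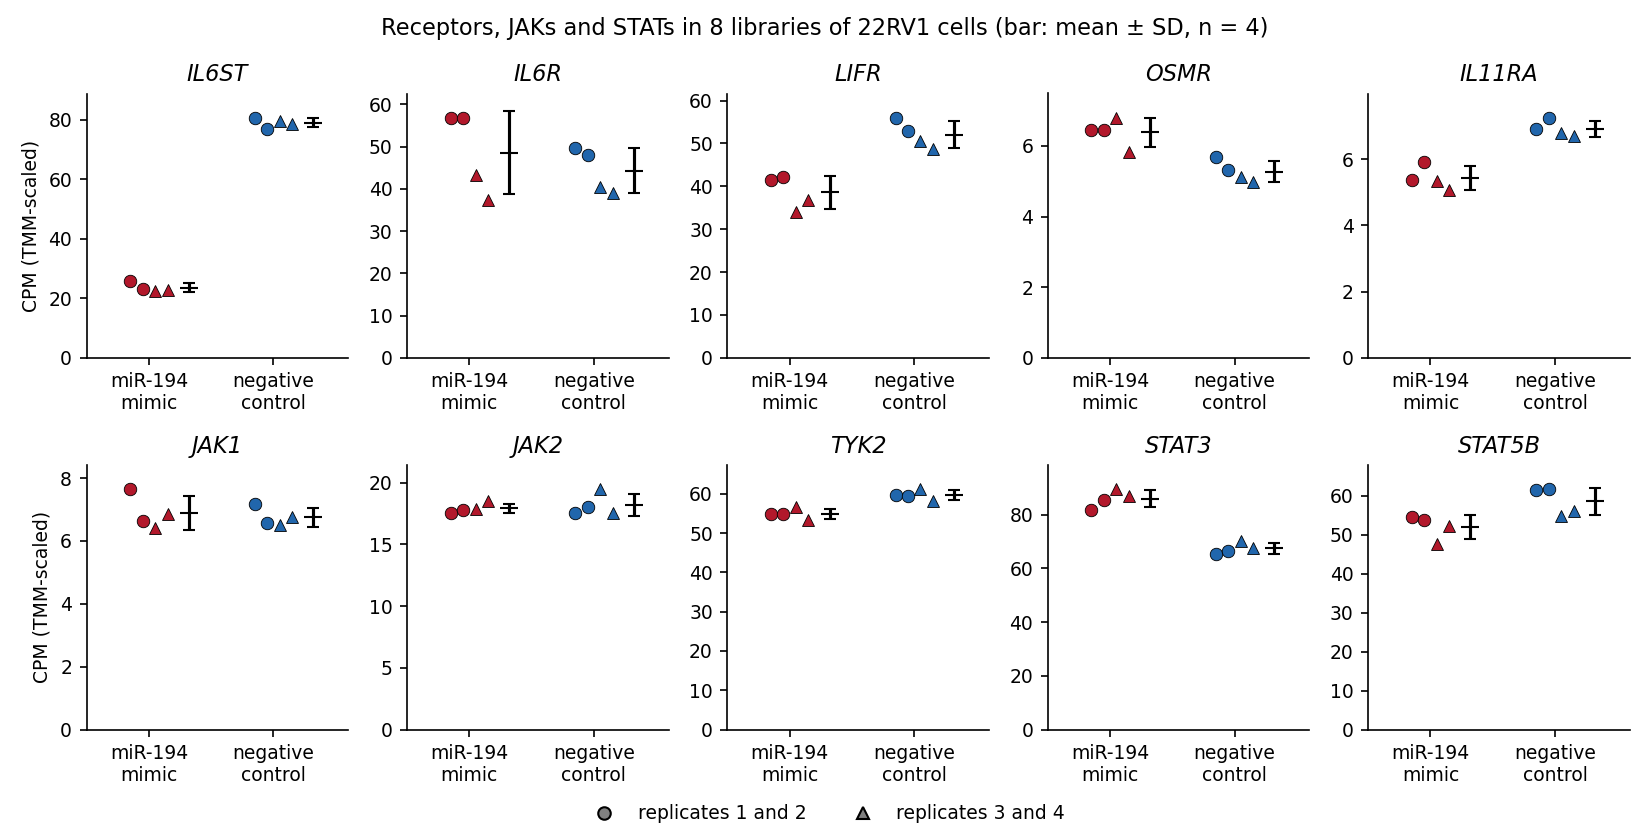
CPM of each gene in every library (y axes start at 0), with the miR-194 mimic left of the negative control, circles for replicates 1 and 2, triangles for replicates 3 and 4, and a bar for the mean ± SD of 4 libraries. IL6ST is between 22.5 and 25.9 CPM with the mimic and between 77.0 and 80.8 CPM with the control, STAT3 is higher in every mimic library, and the IL6R groups overlap.

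The kinases differed little. JAK1, the kinase on which gp130 signalling mainly depends, had 7.65, 6.63, 6.42 and 6.85 CPM with the mimic and 7.17, 6.59, 6.49 and 6.75 CPM with the control. JAK2, which also binds gp130, had 17.5, 17.8, 17.8 and 18.5 CPM with the mimic and 17.6, 18.0, 19.5 and 17.6 CPM with the control. Both overlapped between the groups. The log2 fold changes were 0.03 ± 0.08 for JAK1 and -0.02 ± 0.05 for JAK2 (SE), and the sign of each changed among the alternative fits, between -0.02 and 0.07 for JAK1 and between -0.04 and 0.02 for JAK2.

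TYK2, the third kinase that associates with gp130, had 54.9, 54.9, 56.6 and 53.4 CPM with the mimic, against 59.7, 59.5, 61.2 and 58.1 CPM with the control. All mimic libraries were below all control libraries, but by little. The log2 fold change was -0.12 ± 0.04 (SE), and the level fell by 7.89%. The call was lost without mimic replicate 1 (-0.11), mimic replicate 4 (-0.10), negative control replicate 1 (-0.12) or negative control replicate 3 (-0.11), and within either pair of replicates.

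The 2 STATs moved in opposite directions. STAT3, the transcription factor that gp130 activates, had 81.8, 85.5, 89.4 and 86.8 CPM in the mimic libraries, against 65.5, 66.6, 70.4 and 67.6 CPM in the control libraries. Every mimic library was above every control library, and the spread within each group was small. Means were 85.9 ± 3.2 CPM with the mimic and 67.5 ± 2.09 CPM with the control (SD, n = 4 each), on 2757 to 4080 counts per mimic library and 2642 to 3062 per control library. The log2 fold change was 0.35 ± 0.04 (SE), a 27.2% higher level, which ranked 1230 from the highest among all tested genes.

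STAT5B, which is better known downstream of growth hormone and prolactin receptors, had 54.6, 53.7, 47.6 and 52.3 CPM with the mimic, against 61.5, 61.7, 54.9 and 56.1 CPM with the control. The highest mimic library was just below the lowest control library. The log2 fold change was -0.17 ± 0.06 (SE), and the level fell by 11.1%. The call was lost without mimic replicate 3 (-0.12), mimic replicate 4 (-0.17), negative control replicate 1 (-0.15) or negative control replicate 2 (-0.14), and within replicates 3 and 4. STAT5A, its near-identical neighbour in the genome, had 10.9 ± 0.65 CPM with the mimic and 10.7 ± 0.33 CPM with the control, and no source used here says where reads matching both genes went.

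Of the 10 genes, 2 were called higher (OSMR and STAT3) and 5 lower (IL6ST, LIFR, IL11RA, TYK2 and STAT5B), beside 18.3% of all tested genes called higher and 19.9% called lower. For 7 of the 10 the groups did not overlap, beside 36.9% of all tested genes. The median log2 fold change was -0.07 over the 10 genes and 0.0017 over all tested genes. Nothing is read from these counts, or from calls kept in refits of the same libraries, since the contrast served to choose the genes. LIFR, IL11RA and TYK2 were lower without an 8mer or 7mer in the 3′ UTR. IL6ST, LIFR, IL11RA and STAT3 kept their calls in all 17 alternative fits, with log2 fold changes between -1.81 and -1.67, between -0.49 and -0.37, between -0.39 and -0.32 and between 0.33 and 0.37.

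**Figure D3:**
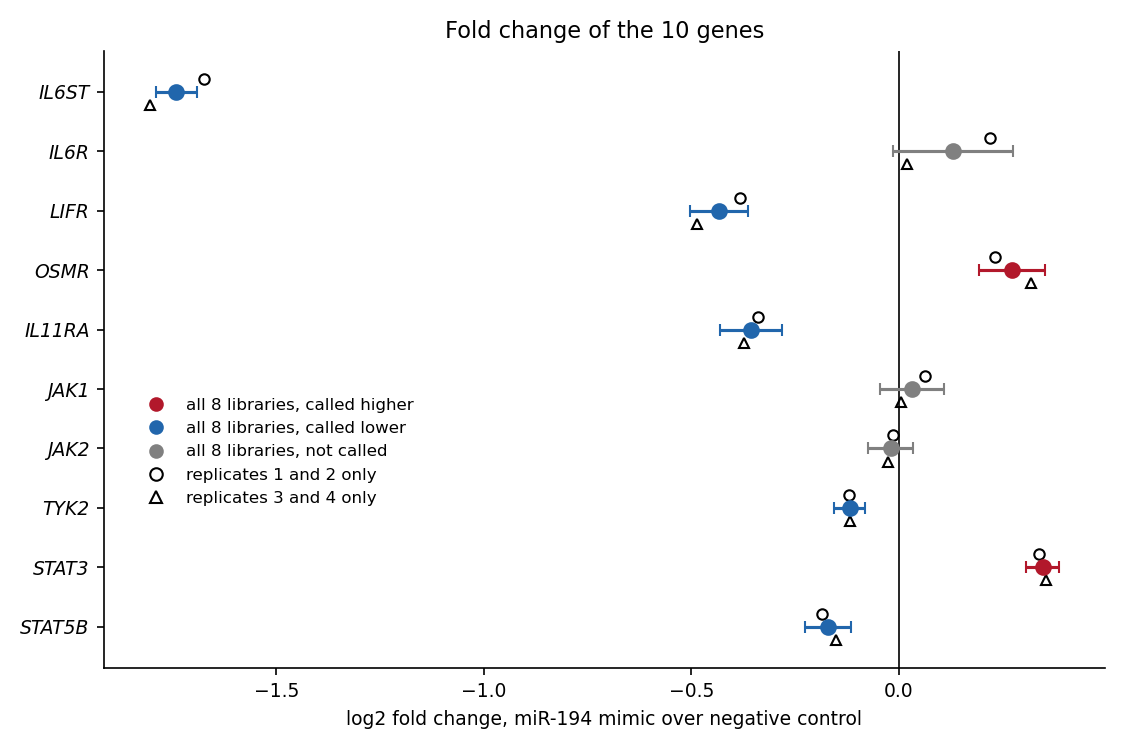
Log2 fold change of each gene, miR-194 mimic over negative control, with its standard error over all 8 libraries (filled circles, coloured by call), and the value within replicates 1 and 2 (open circles) and replicates 3 and 4 (open triangles). IL6ST is at -1.74, no other gene is below -0.5 in any of the 3 fits, and the values of IL6R in the 2 pairs of replicates, 0.22 and 0.02, differ more than its overall distance from 0.

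Ordered by RPKM, the mimic libraries ran from STAT3 (9.74 ± 0.36 RPKM) through TYK2 (8.11 ± 0.19), STAT5B (8.08 ± 0.48), IL6R (7.52 ± 1.53), LIFR (3.25 ± 0.32), JAK2 (2.90 ± 0.06), IL6ST (2.54 ± 0.17), IL11RA (1.27 ± 0.08) and JAK1 (1.09 ± 0.08) to OSMR (0.89 ± 0.06, SD, n = 4). With the mimic the ranges of TYK2 and STAT5B, of STAT5B and IL6R, of LIFR and JAK2 and of IL11RA and JAK1 overlapped, and the other neighbours in that order were apart. The control libraries ran from STAT5B (9.08 ± 0.55 RPKM) through TYK2 (8.81 ± 0.18), IL6ST (8.51 ± 0.17), STAT3 (7.66 ± 0.24), IL6R (6.86 ± 0.83), LIFR (4.39 ± 0.26), JAK2 (2.94 ± 0.15), IL11RA (1.62 ± 0.06) and JAK1 (1.07 ± 0.05) to OSMR (0.735 ± 0.04, SD, n = 4). With the control the ranges of STAT5B and TYK2, of TYK2 and IL6ST and of STAT3 and IL6R overlapped. The shared receptor was thus at place 3 of the 10 in RPKM with the control and at place 7 with the mimic, while STAT3 was at place 4 with the control and at place 1 with the mimic. JAK1 message was low in both groups, below that of JAK2 and TYK2 in every library. Dividing by the longest annotated transcript in place of all annotated exons put TYK2, STAT3, STAT5B and IL6ST in that order at the top in the control libraries and left places 5 to 10 as they were.

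**Figure D4:**
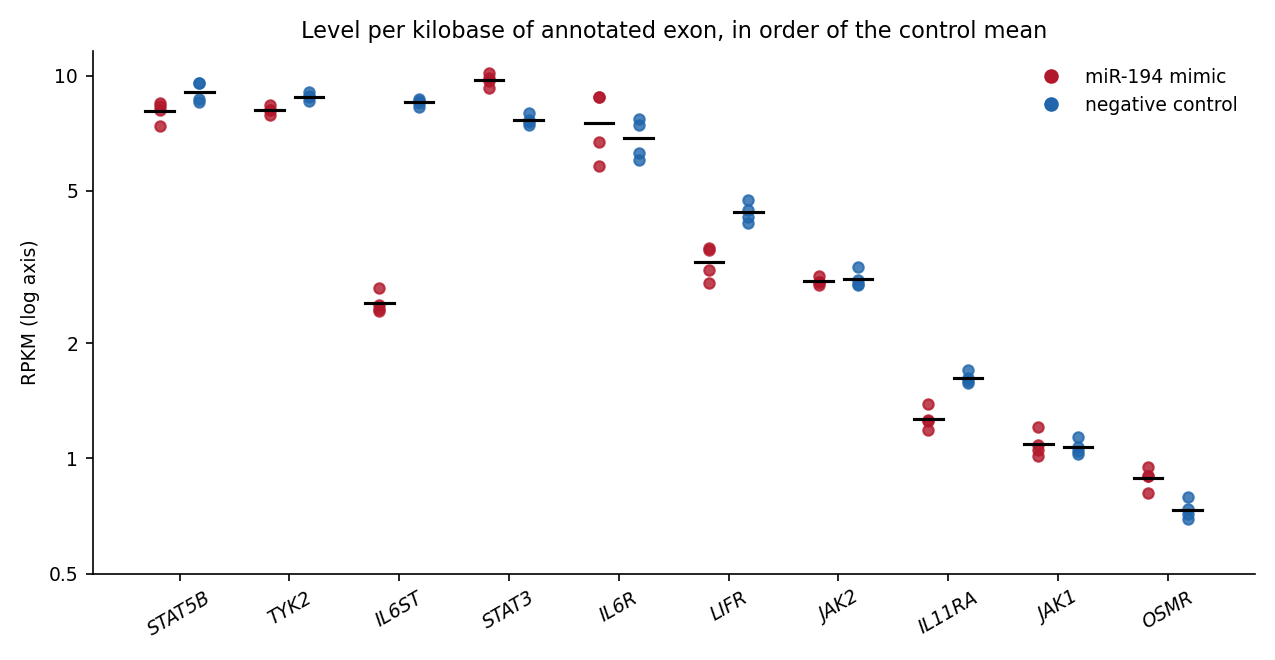
RPKM of each gene (log axis) in the 4 miR-194 mimic libraries (red, left) and the 4 negative control libraries (blue, right), with a line at each mean, in order of the control mean. IL6ST averages 2.54 RPKM with the mimic and 8.51 RPKM with the control, and JAK1 and OSMR are the lowest in both groups.

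Annotated exons of some of these genes overlap other genes in GENCODE 29. IL6ST shares 797 bases with AC008914.1 and LIFR shares 629 bases with LIFR-AS1, both on the opposite strand and without a row in the counts. OSMR shares 229 bases with RICTOR on the opposite strand. On its own strand IL11RA shares 410 bases with AL162231.3, which has no row in the counts, and 334 bases with GALT. Small overlaps on the opposite strand were those of IL11RA with CCL27 (13 bases) and of JAK1 with RAVER2 (4 bases). No source used here says whether the counting used strand, so reads in these stretches cannot be assigned, and the values of OSMR and IL11RA are the less certain for their low counts.

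The other genes of the pathway were taken from lists of 79 genes, of which 61 were tested. Of these 61, 19 were higher and 6 lower with the mimic, beside 18.3% of all tested genes called higher and 19.9% called lower. In either direction 41% were called, beside 38.1% of all tested genes. The pooled shares were close, but the calls in the lists leaned to higher and those of all tested genes did not. The median log2 fold change was 0.06, against 0.0017 over all tested genes. With the replicate number as a block, 23 were higher and 14 lower.

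The ligands were scarce. IL6 had 2, 1, 2 and 0 counts in the mimic libraries and 0, 0, 0 and 2 in the control libraries, and OSM had 3, 0, 1 and 0 counts with the mimic and 0, 0, 0 and 1 with the control, at or below the floor of 3 counts. In all, 6 of 10 ligand genes were too low to test, and 0 of the other 4 passed in either direction (edgeR's quasi-likelihood test, Benjamini-Hochberg adjustment, as for every adjusted p here). By DESeq2 and by limma-voom 0 passed as well, and LIF alone had an unadjusted p below 0.05. LIF, the ligand of LIFR, averaged 5.15 ± 0.50 CPM with the mimic and 6.12 ± 0.57 CPM with the control, with a log2 fold change of -0.25 ± 0.10 (adjusted p = 0.0645), and with the replicate block the adjusted p was 0.0214. Without negative control replicate 3 (-0.30) and within replicates 1 and 2 (-0.30) it passed as well, and so it did with no scaling beyond library totals (-0.27). With the replicate block 2 of the ligands were lower. The adjusted p was 0.296 for CLCF1 (log2 fold change 0.19) and 0.679 for IL11 (log2 fold change -0.11). All 4 overlapped between the groups, and the ligands had a median log2 fold change of -0.17.

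Of 3 further receptors, IL31RA was too low to test. IL27RA, which pairs with gp130 to bind interleukin-27, had 1.35, 1.8, 1.86 and 1.87 CPM with the mimic and 0.992, 1.15, 1.02 and 1.24 CPM with the control. It rose by 0.64 ± 0.15 on the log2 scale (SE, adjusted p = 0.00549), on 58 to 88 counts in the mimic libraries and 40 to 53 in the control libraries. Within replicates 1 and 2 alone the value was 0.52 and was not called. CNTFR, the receptor of ciliary neurotrophic factor, was at 18.5 ± 1.27 CPM with the mimic and 18.2 ± 2.46 CPM with the control (adjusted p = 0.878).

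Of the 6 remaining JAKs and STATs, 2 rose and 0 fell by edgeR, DESeq2 and limma-voom alike (0 fell at an unadjusted p below 0.05 in edgeR), with a median log2 fold change of 0.06. STAT6, which interleukin-4 activates, averaged 140.5 ± 10.3 CPM with the mimic and 125.6 ± 7.69 CPM with the control (log2 fold change 0.16 ± 0.06, adjusted p = 0.0449). The call of STAT6 was lost without mimic replicate 3 (0.14) or 4 (0.13), without negative control replicate 1 (0.15) or 2 (0.13), and with no scaling beyond library totals (0.15). STAT2 had a log2 fold change of 0.10 (adjusted p = 0.114), STAT4 -0.19 (0.424) and STAT5A 0.02 (0.819). JAK3 had -0.24 (0.176) and, with the replicate block, an adjusted p of 0.0301. The rise of STAT3, 0.35, was thus above the log2 fold change of each of the other 6 JAK and STAT genes, a comparison of values without a test.

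Suppressors of the pathway were tested for 14 of 16 genes, with 4 higher, 0 lower and a median log2 fold change of 0.07. DESeq2 and limma-voom also called 4 higher and 0 lower, and 1 was lower at an unadjusted p below 0.05 in edgeR. With the replicate block 4 were higher and 2 lower, SOCS4 (-0.09) and PIAS2 (-0.10), which were also called lower within replicates 3 and 4 (-0.14 and -0.17), and PIAS3 was called lower within replicates 1 and 2 (-0.13). These 3 were named after their values were seen. PTPN1, a tyrosine phosphatase that removes phosphate from JAKs, had 73.9, 76.4, 76.8 and 74.7 CPM with the mimic and 54.0, 51.3, 55.0 and 54.8 CPM with the control. It rose by 0.49 ± 0.04 on the log2 scale (adjusted p = 1.43e-06). SOCS7, a member of the cytokine signalling suppressor family, averaged 87.6 ± 10.1 CPM with the mimic and 65.5 ± 5.33 CPM with the control (0.42 ± 0.08, adjusted p = 0.00261). PTPN6, the phosphatase SHP-1, rose by 0.21 ± 0.04 (adjusted p = 0.00239). PIAS4, an E3 ligase for the modifier SUMO, rose by 0.34 ± 0.11 (adjusted p = 0.0318), a call that was lost with no filter on low counts (0.34), without mimic replicate 1 (0.33), 2 (0.26) or 3 (0.36) or negative control replicate 3 (0.30) or 4 (0.28), with overlapping groups. SOCS3, the inhibitor that STAT3 itself induces, was singled out after its values were seen. It had 36, 20, 54 and 54 counts with the mimic and 22, 37, 34 and 48 counts with the control, a log2 fold change of 0.23 ± 0.26 (adjusted p = 0.52). Its groups overlapped widely.

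The adaptors that lead from gp130 to the ERK and PI3-kinase routes were all tested, with 3 of 8 higher, 1 lower and a median log2 fold change of 0.05. GRB2, which links receptors to SOS, averaged 180.5 ± 4.72 CPM with the mimic and 150 ± 4.04 CPM with the control (0.27 ± 0.03, adjusted p = 8.49e-05). SHC1 rose by 0.21 ± 0.06 (adjusted p = 0.0176), a call lost without negative control replicate 1 (0.19). PTPN11, the phosphatase SHP-2 that docks on gp130, rose by 0.16 ± 0.04 (adjusted p = 0.00968). PIK3CA, the catalytic subunit p110α of PI3-kinase, fell to 15.8 ± 0.82 CPM with the mimic, against 19.6 ± 0.60 CPM with the control (log2 fold change -0.31 ± 0.06, adjusted p = 0.000988).

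Of 5 genes for receptor shedding and turnover, 0 rose and 2 fell, with a median log2 fold change of -0.09. CBL, a ubiquitin ligase named here after its values were seen, had a log2 fold change of 0.16 that had an unadjusted p below 0.05 and was not called by limma-voom. It was called higher in 6 of 17 alternative fits: DESeq2, the replicate block, no filter and the stricter filter on low counts, without mimic replicate 3 (0.21) and without negative control replicate 1 (0.20). With the replicate block the list had 1 higher and 3 lower, with ADAM10, a receptor-shedding protease also named after its values were seen, among the lower (-0.09). ADAM17, the protease that releases the soluble form of IL6R, had 32.4, 31.0, 25.9 and 25.2 CPM with the mimic and 47.4, 44.1, 48.3 and 44.8 CPM with the control. Every mimic library was below every control library, with a log2 fold change of -0.69 ± 0.08 (adjusted p = 4.14e-05). USP8, a deubiquitinase that acts on endocytosed receptors, fell by 0.17 ± 0.04 (adjusted p = 0.00624), a call lost within replicates 1 and 2 (-0.12).

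Genes known as STAT3 targets in other cells were tested for 23 of 32, and the list median was 0.17 on the log2 scale. Of the 23, 9 rose and 3 fell, beside 18.3% of all tested genes called higher and 19.9% called lower. The other 9, liver acute-phase genes such as CRP and FGB, were at most at 3 counts in any library, and 3 of them had no count. MCL1, which protects cells from apoptosis, had 430.6, 434.2, 407.3 and 390.8 CPM with the mimic and 310.1, 311.7, 276.1 and 271.9 CPM with the control (0.51 ± 0.05, adjusted p = 2.1e-05). BCL3, a nuclear member of the IκB family, rose by 0.64 ± 0.08 (adjusted p = 9.3e-05), and ICAM1, a cell adhesion receptor, by 0.74 ± 0.17 (adjusted p = 0.00533) at about 1 CPM.

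Other genes of the target list fell. CCND1, the cell cycle protein cyclin D1, was at 3109 ± 257 CPM with the mimic and 4060 ± 108 CPM with the control (-0.39 ± 0.05, adjusted p = 0.000154). BIRC5, the mitotic protein survivin, was at 149.4 ± 11.6 CPM with the mimic and 214.3 ± 13 CPM with the control (-0.52 ± 0.06, adjusted p = 3.97e-05). PIM1, a serine/threonine kinase, averaged 13.8 ± 2.45 CPM with the mimic and 21.0 ± 2.95 CPM with the control (-0.60 ± 0.13, adjusted p = 0.00508). The list thus moved in both directions, and the other 6 genes called were all higher, with log2 fold changes between 0.18 and 0.79. Most of these 6 calls depended on the fit, and the genes given here were named after their values were seen. CEBPB lost its call in 6 of 17 alternative fits and A2M in 2, while JUNB, CEBPD and TWIST1 lost theirs in 1 each. The groups overlapped for JUNB, CEBPB, CEBPD and A2M.

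An 8mer or 7mer for miR-194-5p in the longest 3′ UTR was present in 4 of the 6 pathway genes that fell (ADAM17, BIRC5, CCND1 and PIK3CA), in 5 of the 19 that rose (among them MCL1, PTPN1, PTPN11 and SOCS7) and in 14 of the 36 that were not called. These counts are small and are given without a test. Beside them, 21.5% of all tested genes with a 3′ UTR had such a site in the longest UTR. Whether the sites bear on these changes was not tested.

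**Figure D5:**
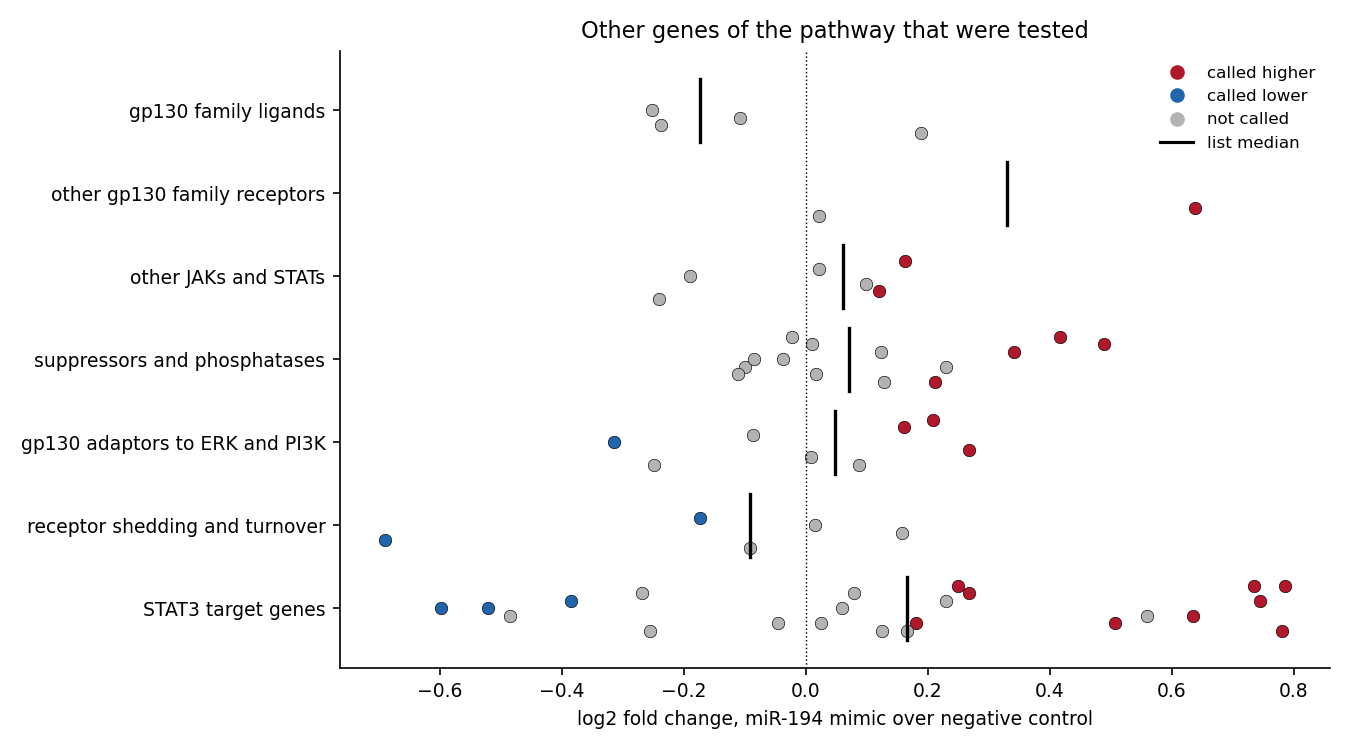
Log2 fold change, miR-194 mimic over negative control, of each tested gene in the 7 lists of other pathway genes (1 point per gene, coloured by call, spread vertically within a list for legibility) with a line at each list's median. The STAT3 target genes spread to both sides, and their called genes lie between -0.60 and 0.79.

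Over the 8 libraries, the 5 genes whose log2 CPM was most like that of IL6ST, among 10302 genes averaging at least 3 on that scale, were MRS2, FZD6, GLRX3, ITGAV and PPT1, with Pearson correlations from 0.9991 to 0.9995. The points of these correlations fall into the 2 groups, and the values show mainly that the groups lie apart. The 5 genes differed in the size of their fall, with log2 fold changes from -1.85 for FZD6 to -0.47 for GLRX3, and none was among the 15 genes tied at the highest Spearman correlation.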

How the data were processed

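RNA libraries were made with an mRNA kit, per the labels' protocols. The authors deposited raw counts per gene symbol for 8 libraries. The submitters' processing notes name STAR, cutadapt 1.8.1, FastQC, edgeR 3.3 and R 3.2.3, and the build hg19. No source used here names the counting program, the annotation or the strand setting.

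The test was that of edgeR 4.0.16, run in R 4.3.3 (filterByExpr, TMM, robust quasi-likelihood fit, two-sided, Benjamini-Hochberg over 14977 genes, threshold 0.05). The model held no term besides the group. Called means past that threshold. CPM use TMM library sizes. RPKM divide them by the length of all exons of the gene in GENCODE 29. Standard errors come from the F statistic. Library totals were 44049656, 32485036, 42241944 and 47248241 counts with the mimic and 40475132, 45818351, 38857018 and 41680491 with the control. Floors and counts carry counting error only. Within each group, replicates differed beyond sampling noise, with chi-square values of 3.77 to 17.4 per degree of freedom.

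Both groups use replicate numbers 1 to 4. Deviations from the group means correlated between libraries of the same number (0.271, 0.335, 0.183 and 0.43), so the numbers met the threshold of 0.1 for pairing. Exchanging replicates 1 and 2, or 3 and 4, gave 0.26, 0.283, 0.195 and 0.316, and no label ties a number to a day or batch. Deviations of replicates 1 and 2 in either group correlated negatively with those of replicates 3 and 4 in the other (-0.478 to -0.09). The main model left this split out, and the replicate block was fitted as an alternative.

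Sites were searched in Python 3.11.15 in 3′ UTRs of at least 50 bases in GENCODE 29 (GRCh38), joined to the counts by symbol since the builds differ. Alternatives covered scaling, filters, DESeq2 1.42.0, limma-voom (limma 3.58.1), the replicate block, leaving out each library, and each pair of replicates alone. The 10 genes and all lists were chosen with earlier results of these data known. Named were the 10 genes, all tested ligands, receptors, JAKs and STATs, up to 6 called genes with the smallest p in each other list, and the 5 genes most like IL6ST. Of these, 2 are counted but not reported here. Only the edgeR step was tested on simulated data. Receptor protein motifs were not analysed here.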

Additional observations from a re-analysis of the deposited data

Results flagged for a closer look

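None of the 10 genes had a library that stood apart from the other 3 of its group, but 4 other genes did, out of 142 groups of 4 libraries examined, where chance gives about 1 in 20. The measure is the gap to the nearest library over the range of the group in log2 CPM. IL27RA was low in mimic replicate 1 (1.35 CPM, against 1.8 to 1.87 in the other mimic libraries, ratio 0.908). GAB2, an adaptor, was low in the same library (7.99 CPM, against 9.11 to 9.28, ratio 0.894), as was MUC1 (0.0228 CPM from 1 count, against 0.319 to 0.404, ratio 0.882). CBL, a ubiquitin ligase, was high in negative control replicate 1 (86.6 CPM, against 76.2 to 77.8, ratio 0.837).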

How the results depend on the processing

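Over scaling, filters, DESeq2 and limma-voom, 2 of the 10 genes stayed called higher and 5 lower. Leaving out each library in turn gave between 1 and 2 higher and between 3 and 5 lower: 1 higher without negative control replicate 4, and 3 lower without mimic replicate 4 or without negative control replicate 1. Within replicates 1 and 2 there were 2 higher (STAT3 and IL6R, with OSMR lost) and 4 lower, and within replicates 3 and 4 there were 1 higher and 3 lower. The cause was not tested, but these fits hold fewer libraries. With the replicate block 3 were higher, IL6R (0.12) being added, and 5 lower. For the other pathway genes the replicate block gave 14 lower in place of 6, and 7616 of all tested genes were called in place of 5712. It changed no call of the 10 genes other than IL6R's. The 8mer or 7mer count of 3 genes was the same with any annotated 3′ UTR and with the UTR of the longest coding sequence (added after the data were seen), and was 0 in coding sequence. No called result reversed, while JAK1 and JAK2, which were never called, changed sign. Depth limits the ligands and the acute-phase genes, for which changes were not detectable at these counts.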
